A study of Aix galericulata with 8 samples.

Results

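The genes described here make or remodel the extracellular matrix, the protein and sugar scaffold that cells deposit around themselves. They were measured in growing sail feathers, the large fan-like wing feathers that drakes of the Mandarin duck (Aix galericulata) carry for courtship. The genes are 10 symbols, HMCN1, MMP16, SPOCK3, COL5A1, COL14A1, AEBP1, MGP, EPYC, COL10A1 and CHAD, and all gene models that carry 1 of them were taken, 19 of the 859 gene models in the deposited tables. The genes were selected on the authors' own comparison of the vanes, since the tables list only gene models whose unadjusted P for medial brown against lateral blue was under 0.05. Being listed is therefore how a gene came to be described and is not a result.

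The 8 libraries of polyA RNA came from wild-type males in the breeding season, with no treatment, about a month after the old feathers were plucked. All 8 labels give the feather stage as early growth. The groups were medial brown vane pulp, lateral blue vane pulp, medial brown vane epithelium and lateral blue vane epithelium, with 2 libraries each. The pulp is the mesenchymal core of the growing feather, and the epithelium holds the keratinocytes that become the vane. The submitters describe the libraries as independent biological replicates, and the study's methods name a pair of males and also mention the neighbouring flight feather, which the sample labels do not. The defining markers of the 2 tissues were not checked. A gene that did not pass the authors' P limit is not analysed here, and no marker was looked up among the listed genes. How cleanly the dissection separated pulp from epithelium is therefore unknown, and a level listed for a tissue is not assigned to a cell type.

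Each gene model has 1 usable measurement per table, the logCPM. It is the authors' mean level over the libraries of a comparison, on a log2 scale of CPM. CPM are reads scaled to the total of their library, and the study's methods name TMM normalization, which adjusts that total. The logCPM averages both vanes, so it describes neither the medial brown nor the lateral blue vane, and it has no error. The authors' fold changes, P and FDR are the results of their own comparison and are not given here. No library has a column of its own (0 such columns). A difference between the vanes could therefore not be measured or set against the spread between replicates, and the direction of each gene is not stated. The depth per library is unknown. The logCPM is not scaled to transcript length, and lengths were not at hand, so the logCPM values of different gene models are shares of reads and do not order the genes by amount of transcript. All CPM values below are 2 to the power of the authors' logCPM.

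In vertebrate skin, fibrillar collagens form the fibres of the dermis, basement membrane proteins join the epithelium to it, and small proteoglycans and associated glycoproteins set how the fibres assemble. Metalloproteinases cut these proteins, and some proteoglycans restrain or modify that cutting. In a growing feather the pulp supplies the mesenchymal matrix and the epithelium rests on a basement membrane against it.

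The symbols were divided between the 2 tables, which is no measure of where they are expressed. Gene models of 3 of the 10 symbols, HMCN1, SPOCK3 and AEBP1, were in both tables. Those of COL10A1 and CHAD were in the pulp table alone, and those of the other 5, MMP16, COL5A1, COL14A1, MGP and EPYC, in the epithelium table alone. By gene model, 2 of the 19 members were in both tables, beside 5 of all 859, which include those members. How many of all listed symbols were in both tables was not computed, so the split is not read as a trait of these genes. A gene model absent from a table either did not pass the authors' limit there or was not tested. Its level in that tissue was not analysed here. The pulp table held 6 member gene models of 80 and the epithelium table held 15 of 784. The median logCPM of the members was 5.11 in the pulp, beside 4.14 over all 80 gene models listed there. It was 4.66 in the epithelium, beside 4.84 over all 784. The order in the epithelium turned with 1 gene model per symbol, the highest, at 5.07 for the members beside 4.94 for all symbols. In CPM, the members held 9.19% of the sum over the pulp table and 0.807% of the sum over the epithelium table. They were 7.5% and 1.91% of the gene models there. In the pulp, SPOCK3 Mandarin_00085300 (252 average CPM) and AEBP1 (206 average CPM) held most of the members' CPM. Among gene models with a symbol, which all members have by definition, the shares were 18.5% in the pulp and 1.36% in the epithelium. These are shares of what each table lists, and the tables hold very different numbers of gene models.

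**Figure D1:**
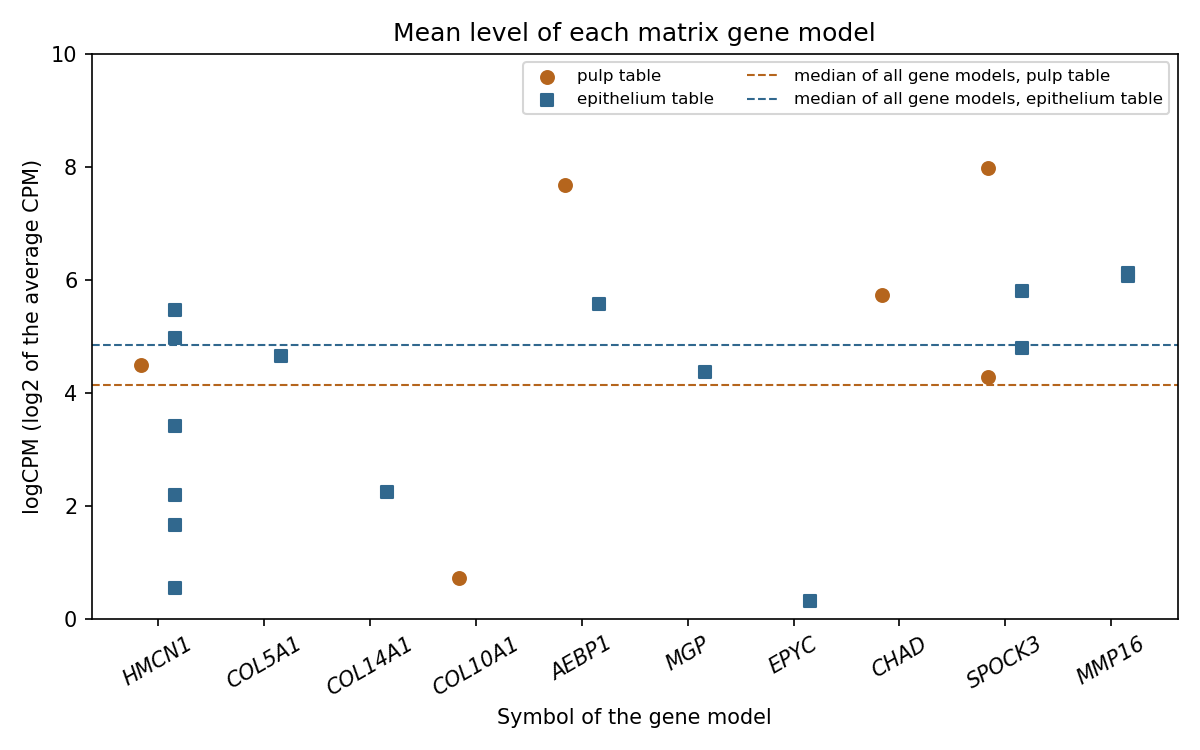
Mean level of each matrix gene model as logCPM (log2 of the average CPM, vertical axis) by symbol (horizontal axis), with circles for the pulp table, squares for the epithelium table and dashed lines at the median of all gene models of each table (4.14 and 4.84). HMCN1 has 7 points, and its epithelial points run between 0.55 and 5.48; a single point stands for 1 gene model and has no error.

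HMCN1 encodes hemicentin-1, a very large secreted protein of the fibulin family that lies in basement membranes and cell junctions. It had more gene models in the epithelium table than any other symbol there, 6, while 46 of the 499 symbols of that table had more than 1. These are counts of listed gene models alone. How many gene models of each symbol the genome holds was not at hand, so the count is not read as a trait of HMCN1. In the pulp, Mandarin_00314200 had a logCPM of 4.49 (22.4 average CPM). In the epithelium, Mandarin_00412500 had a logCPM of 5.48 (44.5 average CPM) and Mandarin_00943800 had 4.98 (31.5 average CPM). Both are mean levels over the 2 vanes.
The other epithelial HMCN1 gene models had fewer reads. Mandarin_00609300 had a logCPM of 3.41 (10.6 average CPM) and Mandarin_01320400 had 2.19 (4.56 average CPM). Mandarin_00475900 had a logCPM of 1.66 (3.16 average CPM) and Mandarin_00967200 had 0.55 (1.46 average CPM). The 6 epithelial gene models together had 95.9 average CPM. None of the 7 HMCN1 gene models was in both tables. Their identifiers are not neighbours: the nearest pair lies 234 steps apart in the numbering and the most distant consecutive pair 3532 steps. Steps are counted with the final digit pair of each identifier left off. Whether the numbering follows position in the genome was not checked. Whether they are fragments of 1 gene or different genes that share hemicentin-like domains was not tested, and reads of similar copies may be split between them.

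COL5A1 and COL14A1 encode collagens of the dermal fibre. COL5A1 is the alpha-1 chain of collagen V, a minor fibrillar collagen that starts fibril assembly and limits fibril diameter. Its single gene model, Mandarin_01569900, had a logCPM of 4.66 in the epithelium (25.3 average CPM). COL14A1 is the chain of collagen XIV, which binds to the surface of fibrils. Its gene model, Mandarin_01172200, had a logCPM of 2.25 in the epithelium (4.76 average CPM), so that its epithelial mean rests on a low CPM. COL10A1 encodes collagen X, a short-chain collagen known from hypertrophic cartilage. Its gene model, Mandarin_01162700, was in the pulp table with a logCPM of 0.73 (1.66 average CPM). The single levels of these 3 collagens ran from 1.66 average CPM (COL10A1, pulp) to 25.3 average CPM (COL5A1, epithelium). Which cells of the dissected tissues carried these reads was not tested.

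AEBP1 encodes a secreted collagen-binding protein, also known as ACLP, that takes part in fibre assembly and wound repair. The same gene model, Mandarin_01552000, was in both tables. It had a logCPM of 7.68 in the pulp (206 average CPM) and 5.58 in the epithelium (47.9 average CPM). MGP, matrix Gla protein, is a small protein that inhibits mineral deposition in vessel walls and cartilage in mammals. Its gene model, Mandarin_00800000, was listed in the epithelium with a logCPM of 4.37 (20.7 average CPM).

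EPYC and CHAD encode epiphycan and chondroadherin, small leucine-rich matrix proteins best known from cartilage. EPYC, Mandarin_00793900, had a logCPM of 0.31 in the epithelium (1.24 average CPM). CHAD, Mandarin_00288900, had a logCPM of 5.73 in the pulp (53.0 average CPM). The 2 genes were listed in different tissues, and neither had a second gene model.

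SPOCK3 encodes a testican, a secreted proteoglycan that carries heparan sulfate and, in human cells, affects the activation of metalloproteinases. It had 3 gene models, of which Mandarin_00085300 was in both tables. That gene model had a logCPM of 7.98 in the pulp (252 average CPM) and 4.80 in the epithelium (27.8 average CPM). Mandarin_01300200 was in the pulp table alone, with a logCPM of 4.28 (19.4 average CPM). Mandarin_00468700 was in the epithelium table alone, with a logCPM of 5.81 (56.0 average CPM). Among the SPOCK3 gene models listed, a different one held most reads in each table; the level of the last 2 in the other tissue was not analysed here.

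MMP16 encodes a metalloproteinase anchored in the cell membrane, which cuts matrix proteins at the cell surface and can activate other metalloproteinases. Its gene models were in the epithelium table alone. Mandarin_01177100 had a logCPM of 6.12 (69.3 average CPM) and Mandarin_01062900 had 6.07 (67.4 average CPM). There is no error to compare these means by, and the identifiers lie 1142 steps apart, counted as for HMCN1. Together they had 137 average CPM.

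The gene models found in both tables allow the same transcript to be set side by side in pulp and epithelium. Of 5 such gene models, 2 were members, SPOCK3 (Mandarin_00085300) and AEBP1 (Mandarin_01552000). The SPOCK3 gene model was 3.18 higher in the pulp on the log2 scale, or 9.06-fold. Summed over all listed SPOCK3 gene models, which partly differ between the tables, the average CPM was 271 in the pulp and 83.8 in the epithelium. AEBP1 was 2.10 higher in the pulp, or 4.29-fold. With each table centred on its median logCPM, the folds were 14.8 for the SPOCK3 gene model and 6.99 for AEBP1. The medians are over different sets of listed genes, so centring is no correction for normalization between the tissues. The other 3 gene models were lower in the pulp, with log2 differences of pulp minus epithelium between -3.95 and -1.42. Whether the tables were normalized together is not stated, so the folds may cross 2 separate scalings. The values have no replicate spread, so these differences are descriptions with no test. In bulk tissue, more cells of a type and more RNA per cell cannot be told apart. CPM are shares of the reads of a library, so the level of other transcripts also shifts them. Neither this nor carry-over between the dissected tissues was tested.

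**Figure D2:**
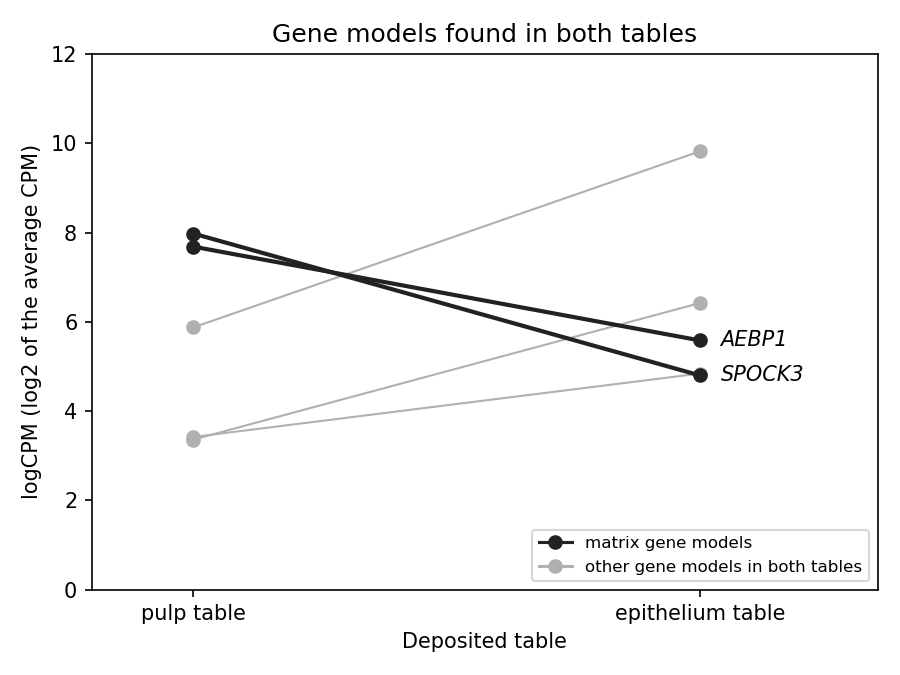
The 5 gene models found in both tables, with their logCPM (log2 of the average CPM, vertical axis) in the pulp table on the left and the epithelium table on the right, joined by a line. The dark lines of SPOCK3 (7.98 in pulp, 4.80 in epithelium) and AEBP1 (7.68 in pulp, 5.58 in epithelium) lie higher in the pulp, and the 3 grey lines of other gene models lie higher in the epithelium.

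Other matrix symbols were also looked up, and how the number found compares with genes in general is unknown. A list of 202 matrix symbols, covering collagens, basement membrane, proteoglycans, elastic fibre, glycoproteins, collagen processing, metalloproteinases and their inhibitors, was looked up in both tables. It contains the 10 symbols described here, so their presence is no count in its favour. Of the other 192 symbols, 3 were listed. The share of all genes tested by the authors that the tables list was not computed, because the number tested is not among the values used, so these counts cannot be set against a background. The symbol in the pulp table was PLOD2, a lysyl hydroxylase that prepares collagen for crosslinking, with a logCPM of 5.38 (41.7 average CPM). Those in the epithelium table were LAMB2, a laminin chain of basement membranes, and TNC, tenascin-C, a glycoprotein of remodelling matrix. TNC had a logCPM of 1.61 (3.06 average CPM). LAMB2 had 2 gene models, with a logCPM of 6.47 (88.9 average CPM) and 0.01 (1.01 average CPM). Gene models without a symbol, 23 of 80 in the pulp and 214 of 784 in the epithelium, may include matrix genes that this lookup could not find.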

How the data were processed

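PolyA RNA from 8 libraries was sequenced by the authors as single reads, aligned with STAR 2.4.1d, counted with HTSeq 0.6.0, normalized by TMM and compared between vanes within each tissue with edgeR, per the labels and the study's methods. The 2 deposited tables hold, for gene models at an unadjusted P under 0.05, the authors' log2 values (logCPM, the average CPM over libraries) and 3 columns of the authors' own comparison (log2 fold change of medial brown over lateral blue, P and FDR). Those 3 columns were not used, except that P was read to check the limit. There were 0 columns per library, so no comparison was fitted, no test was run, and depth per library is unknown. That each table averages the 4 libraries of its tissue was taken from its name and is not stated. The methods name 2 possible sequencing instruments and do not say which library ran on which. The study names a deposited Mandarin duck reference genome. No build name was found, and no position or sequence was used.

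Gene models were matched by symbol with Python 3.11.15 and pandas 2.3.3, and figures drawn with matplotlib 3.10.9. Medians, summed CPM and table shares were computed. Their formulas were run on a few simulated rows, which checks the arithmetic and not the reported values. Named genes are all gene models of the 10 symbols and every listed symbol of the matrix list. The genes and lists were chosen with earlier results of these data known. Alternatives were a minimum logCPM of 1, 1 gene model per symbol, CPM summed per symbol, centring on the table median, and gene models with a symbol alone.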

Additional observations from a re-analysis of the deposited data

How the results depend on the processing

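The median logCPM of the members in the pulp moved to 5.73 with a minimum logCPM of 1, with 1 gene model per symbol and with CPM summed per symbol. Each of these choices leaves CHAD as the middle value, so the equal medians are the level of a single gene model. In the epithelium the same alternatives gave 4.80, 5.07 and 5.12. Treated the same way, all gene models or symbols had medians of 4.42, 3.81 and 3.81 in the pulp and 4.91, 4.94 and 4.95 in the epithelium, a reference chosen after seeing the data. In the epithelium the members' median was below this reference with a minimum logCPM of 1 and above it with the per-symbol choices. Centred on the median of each table, the log2 differences of pulp minus epithelium were 3.88 for SPOCK3 (Mandarin_00085300) and 2.81 for AEBP1. Centring could not have reversed their direction, because the medians lie closer together than either pair of levels. Among gene models with a symbol, the members held 18.5% of the CPM of the pulp table and 1.36% of that of the epithelium table. No paired analysis was possible because the tables hold no value per library, and leaving out a replicate could not be run for the same reason. With no spread between replicates, any change of a printed value was counted as a move. The CPM of EPYC, COL10A1 and the lowest HMCN1 gene model were low, and how this limits their means could not be given without the library depths.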
